A study of Caenorhabditis elegans with 2 samples.

Results

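The snoRNA gene starts of Caenorhabditis elegans are the stretches from 1000 bp upstream to 200 bp downstream of the annotated start of every nuclear gene that Ensembl release 115 gives the biotype snoRNA. There were 346 of them among 46890 nuclear genes. They were examined in ChIP-seq of RNT-1, which belongs to the RUNX family of transcription factors and acts in the dividing seam cells of the worm's epidermis. Both libraries came from whole hermaphrodite late embryos of strain OP462, genotype unc-119(tm4063) III; wgIs462, taken 5 h after synchronization by egg bleaching. These worms carry RNT-1 fused at its C-terminal end to a GFP and FLAG tag, and the immunoprecipitation used an anti-GFP antibody per the sample notes, although a separate antibody entry names rnt-1. The 2 biological replicates form 1 group, and there was no second condition, so shares of genes and positions are described and no contrast is tested. The strain carries an unc-119 mutation throughout and is a single transgenic line, the labels do not give the promoter that drives the fusion, and whole embryos mix all cell types. Lists from an untagged strain or from another tagged protein were not analysed here.

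Small nucleolar RNAs guide the chemical modification of ribosomal and other RNAs. Box C/D snoRNAs guide methylation of the ribose, and box H/ACA snoRNAs guide the change of uridine to pseudouridine. In animals many lie in introns of protein-coding genes, often genes of ribosomal proteins, and are cut out of the host's transcript, while others have a promoter of their own. In C. elegans, many snoRNA genes, intronic ones included, have been reported to carry elements like the internal promoter of tRNA genes just before their start. In a tRNA gene these elements, box A and box B, lie inside the transcribed gene and recruit RNA polymerase III. By position, 183 of the 346 snoRNA genes lay wholly inside a protein-coding gene on the same strand, 33 inside 1 on the opposite strand, and 130 inside none, which are called independent below. Of those inside a host, 172 lay within introns and 44 overlapped an exon of the host. The genes were 54 to 344 bp long with a median of 130 bp, and no 2 had the same sequence.

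The 120 bases before the start show what several of the snoRNA genes with the highest RNT-1 signal have in common. The sequences run 5′ to 3′ on the strand of the snoRNA gene and end at the base before its start. They were read from the RefSeq WBcel235 (ce11) genome at C51F7.3 (chrV:12303588-12303707, plus strand), W03C9.9 (chrII:11960778-11960897, plus strand), T03F7.8 (chrV:11314138-11314257, plus strand), Y43F8C.22 (chrV:19643188-19643307, minus strand), F32E10.10 (chrIV:7574002-7574121, plus strand), F55A11.10 (chrV:11782872-11782991, plus strand) and F30H5.4 (chrIII:502684-502803, plus strand). Capitals mark a box A word, TGGNNNAG, and after it the first box B word, GTTCNANNC, on the same strand. The 7 are those of the 20 snoRNA genes with the highest signal that hold such a pair, ordered by signal.
C51F7.3: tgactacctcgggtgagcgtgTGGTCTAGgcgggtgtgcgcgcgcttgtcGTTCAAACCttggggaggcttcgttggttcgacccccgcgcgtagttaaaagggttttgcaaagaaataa
W03C9.9: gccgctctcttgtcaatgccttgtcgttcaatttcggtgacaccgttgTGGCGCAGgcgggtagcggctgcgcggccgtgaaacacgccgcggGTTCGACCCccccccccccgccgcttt
T03F7.8: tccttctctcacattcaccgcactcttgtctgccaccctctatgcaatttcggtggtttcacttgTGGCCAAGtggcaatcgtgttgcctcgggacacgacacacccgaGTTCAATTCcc
Y43F8C.22: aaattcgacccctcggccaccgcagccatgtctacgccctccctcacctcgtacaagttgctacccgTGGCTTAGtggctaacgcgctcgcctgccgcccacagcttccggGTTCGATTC
F32E10.10: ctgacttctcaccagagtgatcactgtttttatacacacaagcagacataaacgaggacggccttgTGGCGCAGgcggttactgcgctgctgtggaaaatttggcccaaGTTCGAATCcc
F55A11.10: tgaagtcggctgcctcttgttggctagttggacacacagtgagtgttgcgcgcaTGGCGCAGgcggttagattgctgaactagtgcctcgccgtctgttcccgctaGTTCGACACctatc
F30H5.4: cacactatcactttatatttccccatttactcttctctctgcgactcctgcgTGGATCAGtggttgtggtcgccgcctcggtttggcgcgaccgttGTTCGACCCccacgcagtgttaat

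A further pair of genes from the same 20 shows starts without it, again with the last base before the start at the right: T06C12.16 (chrV:15873927-15874046, minus strand) and ZK994.7 (chrV:8500459-8500578, plus strand). T06C12.16 has a box A word, and near its start the letters of box B run on into the gene, where the last of them does not match, so nothing is capitalised. ZK994.7 holds no exact pair.
T06C12.16: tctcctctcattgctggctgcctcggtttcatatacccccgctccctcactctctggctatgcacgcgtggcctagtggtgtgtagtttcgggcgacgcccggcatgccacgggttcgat
ZK994.7: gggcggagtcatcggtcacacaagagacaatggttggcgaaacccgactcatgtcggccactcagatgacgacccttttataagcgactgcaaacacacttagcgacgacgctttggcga

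RNT-1 summits were found at 84 of the 346 snoRNA starts, 24.3% (95% Wilson interval 20.1 to 29.1), in the authors' shortest list, which they filtered by the irreproducible discovery rate (IDR). A summit is the highest point of a region as the authors give it, and it counted when it lay in the stretch from 1000 bp upstream to 200 bp downstream. The same windows held a summit at 5.01% of all 46890 nuclear genes. Among other kinds of gene the share was 25.7% of 612 tRNA genes (22.4 to 29.3), 13.8% of 261 miRNA genes, 8.53% of 129 snRNA genes and 6.11% of 19973 protein-coding genes (5.79 to 6.45). The snoRNA and tRNA intervals overlap, and the snoRNA interval lies above that of protein-coding genes. In the list called on both replicates together, which keeps background regions, 201 snoRNA starts (58.1%) held a summit, against 23.1% of all nuclear genes. Replicate 1 alone gave 191 (55.2%), against 21.9% of all nuclear genes, and replicate 2 alone gave 202 (58.4%), against 25.1%. Intervals on shares cover counting error only, and neighbouring genes can share a summit.

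**Figure D1:**
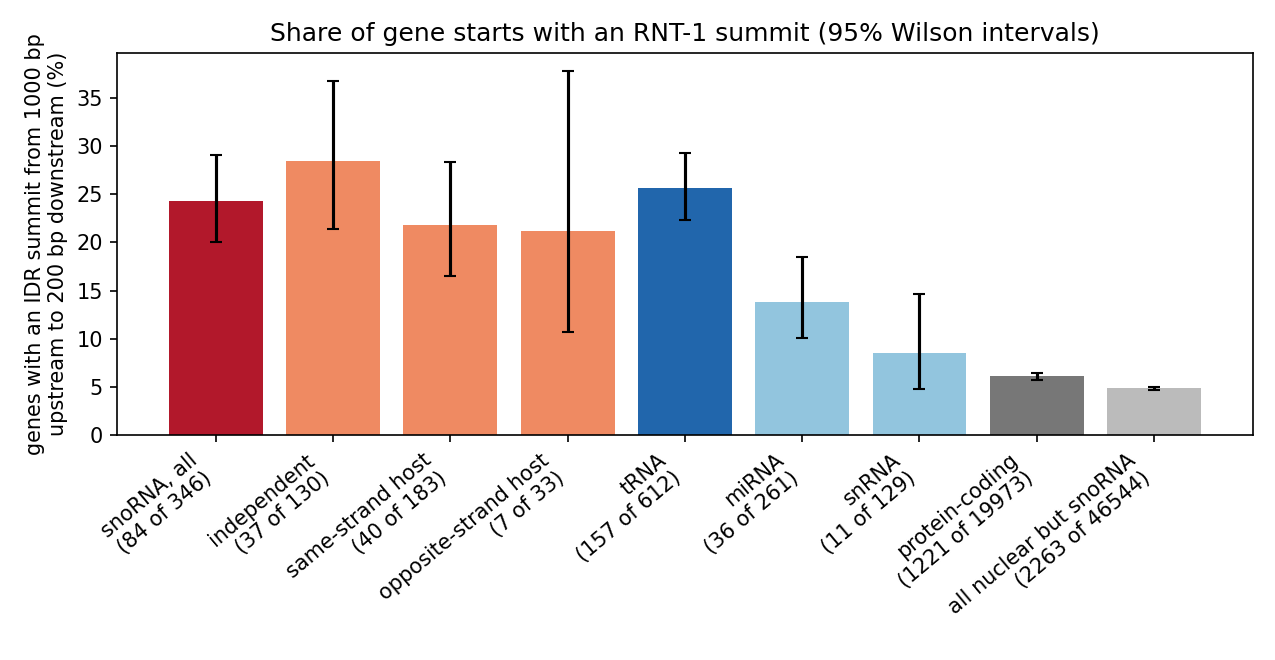
Share of gene starts with an IDR summit, in percent, for the snoRNA genes, their 3 classes by host, and other kinds of gene. Bars start at 0 and error bars are 95% Wilson intervals; the snoRNA bar stands at 24.3%, and the protein-coding bar at 6.11%.

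Over the whole window, the share was of like size in the 3 classes of snoRNA gene. Independent genes had a summit in 37 of 130 (28.5%, 21.4 to 36.8), genes inside a same-strand host in 40 of 183 (21.9%, 16.5 to 28.4), and genes inside an opposite-strand host in 7 of 33 (21.2%, 10.7 to 37.8). All 3 intervals overlap. The strongest summit lay 1 to 100 bp upstream at 28 of the 130 independent genes and 21 of the 183 in same-strand hosts. In opposite-strand hosts it did so at 6 of 33, and over all nuclear genes at 0.795%. The difference among classes was not tested. Within hosts, intronic snoRNA genes had a summit in 44 of 172 (25.6%, 19.6 to 32.6), while those overlapping a host exon had 1 in 3 of 44 (6.82%, 2.35 to 18.2). By chromosome the share ran from 12.1% on X (4 of 33, interval 4.82 to 27.3) to 28.8% on IV (17 of 59, 18.8 to 41.4), and all 6 intervals overlap. When a summit was kept only where the snoRNA start was the nearest start of any gene, 58 of the 84 members remained. The count then was 32 for independent genes and 7 for genes in opposite-strand hosts, but 19 for genes in same-strand hosts, so about that class the result depends on how a summit is assigned. The share of all nuclear genes under the nearest-start rule is not given here, so these counts have no background beside them.

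The 84 snoRNA genes rest on 80 distinct peaks, 4.16% of the 1923 nuclear IDR peaks, because 8 snoRNA genes share their summit with another, and 1 gene has 2 summits. These 80 supplied 14 of the strongest 100 peaks in the IDR list. The signal is a score deposited by the authors with no stated scale, and it is used here only within a list. Its median was 187.6 at the 80 snoRNA peaks (interquartile range 136.3 to 248.8), against 136.1 at the 1843 other nuclear IDR peaks (111.9 to 180). The highest snoRNA peak, at 470.5, held rank 17 of the list.

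At most of these genes the summit lay just before the start. The median position was 56 bp upstream (interquartile range 165 to 38.8 bp upstream), and 55 of the 84 strongest summits (65.5%, 54.8 to 74.8) lay 1 to 100 bp upstream of the snoRNA start. The strongest summit of the window lay in that stretch at 0.795% of all nuclear genes and at 15.9% of all 346 snoRNA genes. Of the others, 25 had the summit farther upstream and 4 at or after the start. Summits at tRNA genes had their median 9 bp after the start, with 38 of 157 (24.2%) lying 1 to 100 bp upstream. Those at protein-coding genes had theirs 254 bp upstream, with 166 of 1221 (13.6%) in that stretch. At the 11 snRNA genes with a summit the median was 33 bp upstream, with 6 of 11 (54.5%, 28.0 to 78.7) in that stretch, an interval that includes the snoRNA share. In bins of 50 bp, snoRNA genes had 8.96 summits per 100 genes in the last 50 bp before the start and 6.94 in the 50 bp before that. The stretch of 1 to 100 bp was chosen after the positions had been seen.

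**Figure D2:**
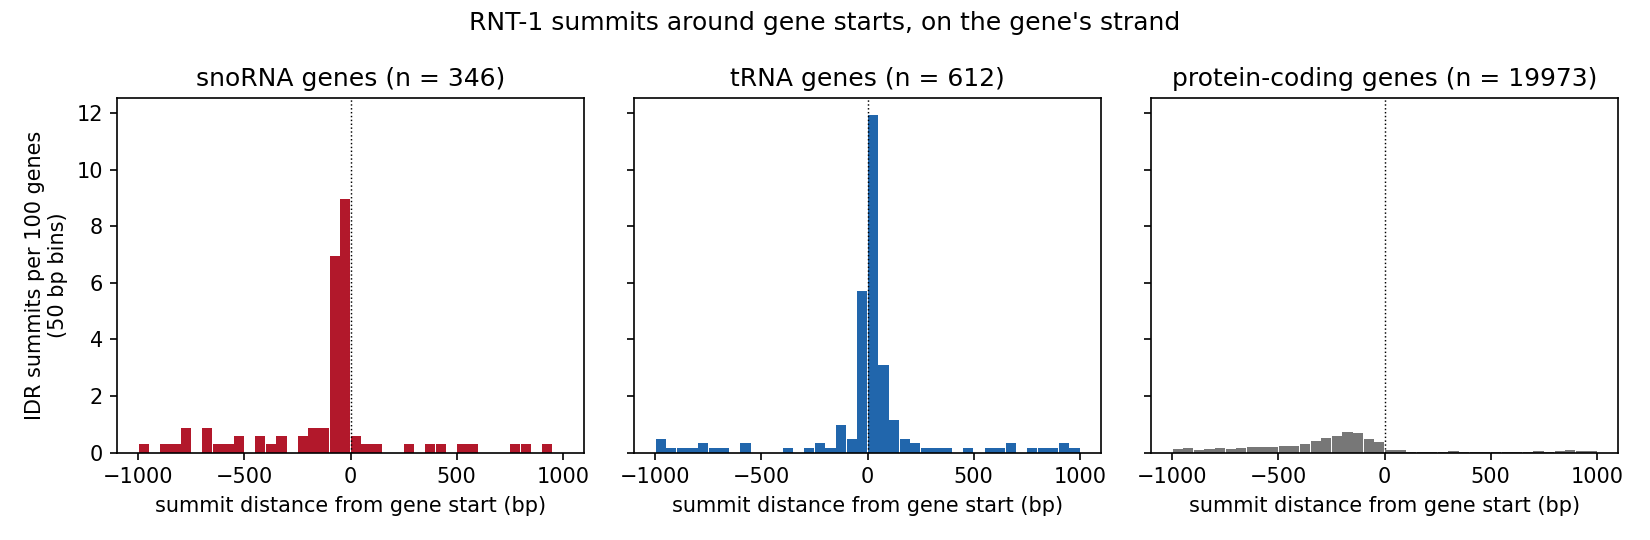
Position of IDR summits around the starts of snoRNA, tRNA and protein-coding genes, as summits per 100 genes in bins of 50 bp, with negative distances upstream on the gene's strand. The snoRNA summits pile up in the 2 bins before the start (6.94 and 8.96 per 100 genes), the tRNA summits around the start, and the protein-coding summits spread far upstream, with a median of 254 bp.

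The position differed among classes in its spread more than in its centre. Independent snoRNA genes had a median of 50 bp upstream (73 to 37 bp) with 28 of 37 in the last 100 bp, and genes in opposite-strand hosts 38 bp upstream with 6 of 7. Genes in same-strand hosts had a median of 69.5 bp, an interquartile range of 520 to 47 bp upstream, and 21 of 40 in the last 100 bp. Regions below the IDR threshold were spread more widely. Of the 262 snoRNA genes without an IDR summit, 117 had a summit in the list of both replicates together, with a median position of 244 bp upstream and 23 of them (19.7%) in the last 100 bp. The corresponding share for protein-coding genes was 12%. A further 145 had no summit in that list, and 112 of these had none in any list.

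Same-strand hosts fell into separate cases by where the summit lay. For 21 snoRNA genes the summit lay 1 to 100 bp before the snoRNA itself. It could not also lie in the host's start window, which ends 200 bp after the host's start, because these genes begin too far from it. These snoRNA genes begin 843 to 16071 bp from the host's start (median 3785 bp) and belong to 21 hosts. They include Y43F8C.22 in Y43F8C.7, C51F7.3 in frm-7, a gene of a FERM-domain protein, ZK994.7 in pxn-1, a peroxidasin gene, T08B2.13 in fars-1, which encodes a phenylalanyl-tRNA synthetase subunit, M106.6 in mix-1, a condensin gene, and K11C4.6 in unc-70, which encodes beta-spectrin. For 16 others the summit lay in the start window of the host too, with the snoRNA 61 to 713 bp from that start (median 370.5 bp), and these share 13 hosts and 13 summits. The last 3 were in neither position.

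Where the host was a ribosomal protein gene, every summit was of the second case. Such hosts were counted by the gene names rpl and rps only. They contain 19 of the same-strand snoRNA genes. Of these, 10 had a summit, each in the host's start window and none in the last 100 bp before the snoRNA. The 7 hosts were rpl-15, rps-12, rps-23, rpl-7, rpl-7A, rps-13 and rpl-24.1, all genes of ribosomal proteins. The 164 snoRNA genes in hosts of other names had 30 with a summit, 21 of them in the last 100 bp before the snoRNA. K11H12.12 and K11H12.13, both in rpl-15, share 1 summit of signal 438.4 that lies 886 and 555 bp upstream of them. Its regions had signals of 267.7 in replicate 1 and 169.1 in replicate 2, at rank 26 in both. F54E7.10 and F54E7.11 in rps-12 likewise share 1 summit of signal 231, which lies 250 and 617 bp upstream. C06A1.9 in cdc-48.1, which encodes an AAA ATPase, had its summit 510 bp upstream at signal 401.1, with 250.7 in replicate 1 and 147.8 in replicate 2. F54C9.12 in iff-2, a translation factor gene of the eIF-5A family, had its summit 675 bp upstream at signal 305.9. At each of the 7 ribosomal protein hosts, the summit also lay in the start window of a further protein-coding gene. These were K11H12.8, ska-3, dpm-3, rab-11.1, set-21, nfx-1 and rps-10, in the order of the hosts above. The summit at iff-2 also lay in that of F54C9.14, while the summit at cdc-48.1 lay in no other. For such summits the starts of the host, the snoRNA and any such neighbour cannot be told apart as the place they belong to.

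Over all classes, 15 of the 55 genes with a summit in the last 100 bp had that summit also in the start window of a protein-coding gene, against 23 of the 25 genes with a summit farther upstream. Of the 80 distinct summits, 36 lay in a protein-coding start window and 1 in a tRNA start window, that of ZK994.7. For 49 of the 55 genes, no annotated gene start was nearer to the summit than that of the snoRNA.

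Both replicates showed the same places. All 84 snoRNA genes had a summit in the window in replicate 1 and in replicate 2. Over the 80 distinct peaks the replicates' summits lay a median of 18 bp apart, and 72 lay within 50 bp of each other. When each replicate's list was reduced to its 1931 strongest regions, the length of the IDR list, 70 of the 84 were in both. The median rank was 401 in replicate 1 (14 to 4123) and 483 in replicate 2 (22 to 4498), with 4 genes outside the strongest 1931 in replicate 1 and 10 in replicate 2. Of the 55 summits 1 to 100 bp upstream, 53 had a replicate 1 summit and 52 a replicate 2 summit in that same stretch. Over these 80 peaks the 2 replicate signals had a Spearman rho of 0.774, and their log2 values a Pearson r of 0.756. The peaks were chosen by a threshold that used both replicates and share their libraries, so these values are a description.

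**Figure D3:**
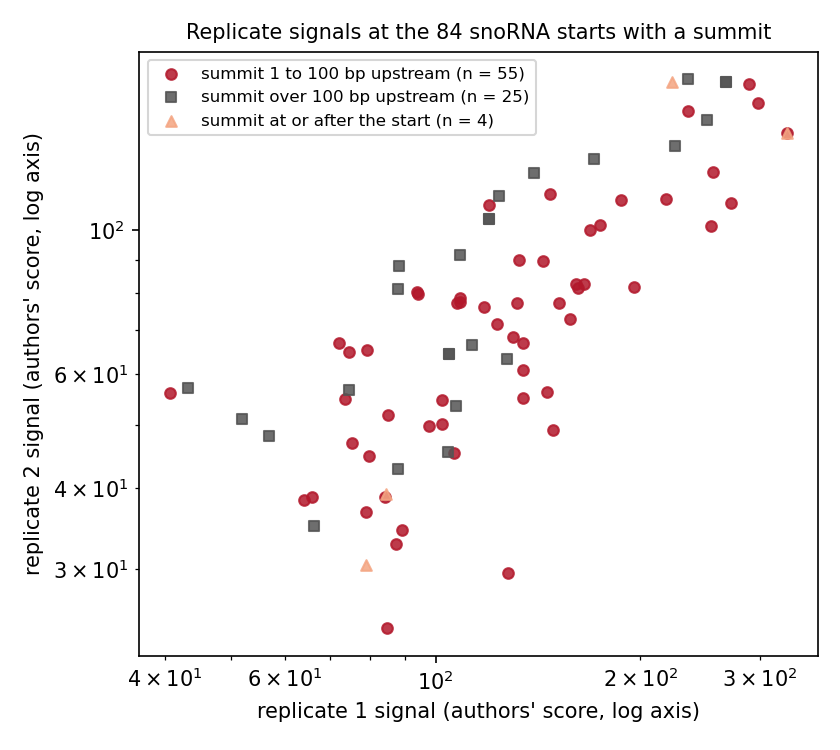
Signal in replicate 1 (horizontal) and replicate 2 (vertical), as the authors' score on log axes, for the 84 snoRNA genes with an IDR summit, with the symbol showing where the summit lies. Genes with a high signal in 1 replicate tend to have a high signal in the other (Spearman rho 0.774 over the 80 distinct peaks).

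The highest snoRNA signal belonged to C51F7.3 and C51F7.4, neighbours in frm-7 that share 1 summit at rank 17. The region (chrV:12303491-12303758) had a signal of 470.5 in the IDR list, 328.3 in replicate 1 at rank 14 and 141.1 in replicate 2 at rank 49. The summit lies 66 bp upstream of C51F7.3 and 43 bp after the start of C51F7.4, and the box words printed for C51F7.3 lie inside the annotated C51F7.4. W03C9.9, an independent gene with box C and D words, followed at 462.9 in the IDR list, 289 at rank 19 in replicate 1 and 167.5 at rank 28 in replicate 2. Its region is chrII:11960701-11960967, and its summit lay 73 bp upstream, at the base before its box A word. ZK265.10, an independent gene on chromosome I, had 457.9 in the IDR list, 298.2 at rank 18 in replicate 1 and 156.8 at rank 33 in replicate 2, with the summit 59 bp upstream. That summit also lay in the start window of the protein-coding gene sre-23. For these snoRNA genes both replicates placed the region at rank 49 or better in its list.

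T03F7.8 lies inside cutl-18, a cuticlin-like gene, on the opposite strand, 2643 bp from that gene's start. Its region (chrV:11314087-11314363) had 390.2 in the IDR list, 235.1 in replicate 1 and 152.6 in replicate 2, and the summit lay 38 bp upstream, between its box words. The independent gene T06C12.16 had 384 in the IDR list, 271.9 in replicate 1 and 109.9 in replicate 2, with the summit 64 bp upstream. Y43F8C.22, which carries the ACA triplet of H/ACA snoRNAs near its end, had 377.7, 255.8 and 122.6 in the IDR list, replicate 1 and replicate 2, with the IDR summit 7 bp upstream. ZK994.7 had 354.5, 254.3 and 101.5 in the same order, with the summit 31 bp upstream. In all 4 the replicates' regions were present in the same window.

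Farther down the same ranking, C46C2.8 had an IDR signal of 329.5 and its summit 32 bp upstream, F32E10.10 had 295.6 and 50 bp, and F55A11.10, inside F55A11.6, had 278.7 and 19 bp. F30H5.4 had 275.8 with the summit 39 bp upstream, and C41C4.11 had 266.7 with the summit 51 bp upstream. Independent genes among the 20 highest with the summit elsewhere were F59C6.15 on chromosome I, with a signal of 402.5 and the summit 113 bp upstream, Y17G7B.25, with 366.3 and 171 bp, and ZK20.9, with 390.4 and the summit 9 bp after the start. Y17G7B.25 also showed a wide gap between the replicates, with the summit 171 bp upstream in replicate 1 and 103 bp upstream in replicate 2. Summits here that also lay in a protein-coding start window were those of F55A11.10 (F55A11.11), C41C4.11 (chst-1 and C41C4.9), F59C6.15 (F59C6.18) and Y17G7B.25 (ippk-1).

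Just inside the IDR threshold, whose lowest signal was 95.75, were Y67A10A.14 at 99.63, D1007.20 in rpl-24.1 at 99.88, Y71F9AM.7 in cogc-3 at 101.2, Y49E10.36 in his-72, a histone H3.3 gene, at 101.3, and ZK546.18 in mdt-4, a Mediator gene, at 102.7. Just outside it, by their signal in the list of both replicates together, were F30A10.16 at 95.46, C17D12.8 at 95.15, C08D8.3 at 92.39, F25G6.21 at 91.25 and F07A11.15 at 90.81. These positions were mixed, with C17D12.8 at 25 bp and C08D8.3 at 41 bp upstream but F25G6.21 at 610 bp upstream. The replicates differed at F30A10.16, with signals of 77.76 at rank 1168 in replicate 1 and 13.7 at rank 15751 in replicate 2. At F07A11.15 the summit lay at 182 bp in replicate 1 but at -792 bp, upstream of the start, in replicate 2. C17D12.8, C08D8.3 and F25G6.21 showed neither gap of this size.

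The paired box words lay before 18 of the 346 snoRNA starts (5.20%), against 25 of the 46544 other nuclear genes (0.0537%). They were searched on the gene's strand from 120 bp upstream to 15 bp after the start, with 20 to 75 bp between the words. On the other strand the same search found none at snoRNA genes and 47 among all nuclear genes. None of the 612 tRNA genes, whose own boxes lie inside the gene, and 10 of the 19973 protein-coding genes had the pair in that stretch. The words follow the known tRNA boxes, but their letters were settled after the sequences at the strongest summits had been read, so the counts below describe these genes and are no independent support.

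Of the 18 snoRNA genes with the pair, 16 had an IDR summit (88.9%, 67.2 to 96.9), and all 16 of these summits lay 1 to 100 bp upstream, with a median of 51 bp. Of the 328 without the pair, 68 had 1 (20.7%, 16.7 to 25.4). Among other genes with the pair, 5 of 25 had a summit (20%, 8.86 to 39.1). All 5 were among the 11 of biotype ncRNA (45.5%, 21.3 to 72.0), and 2 of them share a summit, while none of the 14 other genes had 1. Over all genes of that biotype the share was 8.40%. By class, a summit was found at 7 of 8 independent genes, 7 of 8 genes in same-strand hosts and 2 of 2 genes in opposite-strand hosts that had the pair. The strongest 1931 regions of replicate 1 alone held 16 of the 18 and those of replicate 2 held 14. The exceptions were R166.7 in mnk-1 and the independent gene Y59E1B.14. Both had only weak regions in the list of both replicates together, with signals of 39.6 and 30.61 and summits 244 bp upstream and 148 bp after the start.

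The words kept a narrow spacing from the gene. The first base of box A lay 50 to 99 bp upstream (median 58.5 bp), that of box B 5 to 70 bp upstream (median 14 bp), and the gap between the words was 35 to 44 bp in 17 of the 18. At C51F7.3 the first box B word came after 21 bp. Another exact box B word, left in small letters, follows it in the printed stretch, so the gap there depends on which word is taken. The summit lay between the first base of box A and the last base of box B in 12 of 16 genes and a median of 7.5 bp after the first base of box A. At W03C9.9, Y75B12B.12 and Y39G10AR.24 it lay before box A, and at T10B9.11 just after box B.

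**Figure D4:**
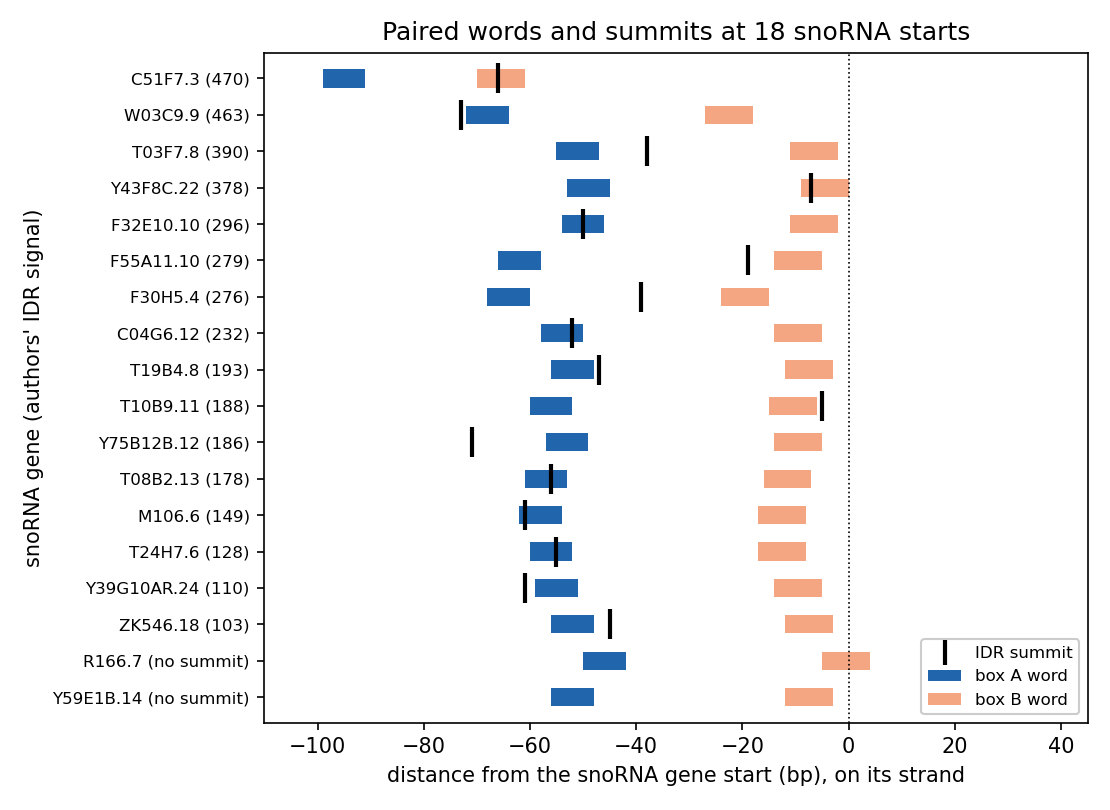
Positions of the box A word (blue), the box B word (orange) and the IDR summit (black line) relative to the snoRNA start, for the 18 snoRNA genes with the pair, with the IDR signal in parentheses. In 12 of the 16 genes with a summit it lies between the first base of box A and the last base of box B.

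The pair was also present where the signal was lower. The stretches before 5 such genes, with signals from 232.5 to 102.7, are printed as examples: C04G6.12 (chrII:5105232-5105351, minus strand), T10B9.11 (chrII:9774835-9774954, minus strand), M106.6 (chrII:10840197-10840316, plus strand), T24H7.6 (chrII:6248597-6248716, plus strand) and ZK546.18 (chrII:4942520-4942639, minus strand). They were picked because they hold the pair, so its presence in them is no result. Capitals mark the box words as above.
C04G6.12: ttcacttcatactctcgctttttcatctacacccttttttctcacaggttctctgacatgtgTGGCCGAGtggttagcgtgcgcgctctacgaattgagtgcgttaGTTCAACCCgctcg
T10B9.11: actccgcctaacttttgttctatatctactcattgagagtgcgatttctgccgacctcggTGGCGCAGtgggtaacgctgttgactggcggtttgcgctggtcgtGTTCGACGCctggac
M106.6: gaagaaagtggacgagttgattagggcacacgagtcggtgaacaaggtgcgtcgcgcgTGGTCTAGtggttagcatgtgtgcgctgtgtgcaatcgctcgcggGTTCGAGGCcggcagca
T24H7.6: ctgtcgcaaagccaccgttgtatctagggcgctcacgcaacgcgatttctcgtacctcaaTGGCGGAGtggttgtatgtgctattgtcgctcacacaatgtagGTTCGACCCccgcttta
ZK546.18: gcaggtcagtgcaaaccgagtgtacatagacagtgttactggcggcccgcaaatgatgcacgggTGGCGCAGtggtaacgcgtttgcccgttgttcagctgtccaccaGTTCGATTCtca

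C04G6.12, on the opposite strand inside mpk-2, a MAP kinase gene, had a score of 232.5 with the summit 52 bp upstream. T10B9.11, which is independent, had 187.9 and a summit 5 bp upstream. M106.6 had 149.1 and 61 bp, T24H7.6 in T24H7.2 had 128.5 and 55 bp, and ZK546.18 had 102.7 and 45 bp. The median signal was 212.8 over the 16 genes with the pair and a summit (interquartile range 170.6 to 316.1), against 186.9 over the 68 with a summit and no pair (136.3 to 243). These ranges overlap.

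Sequences close to the pair were described by counting mismatches, from 0 to 4, between the letters fixed in both words and the best place in the same stretch. The share of snoRNA genes with an IDR summit was 16 of 18 with 0 mismatches, 16 of 29 with 1 (55.2%, 37.5 to 71.6), 24 of 71 with 2 (33.8%, 23.9 to 45.4), 18 of 141 with 3 (12.8%, 8.23 to 19.3) and 10 of 86 with 4 (11.6%, 6.44 to 20.1). For the other nuclear genes the share was 20% of 25, 5.45% of 514, 4.56% of 5707, 4.52% of 22058 and 5.18% of 17438 in the same order. Of the 55 snoRNA genes with a summit in the last 100 bp, 46 (83.6%) were within 2 mismatches and 31 (56.4%) within 1. The figures were 10 (34.5%) and 1 of the 29 with a summit elsewhere, and 62 (23.7%) and 15 (5.73%) of the 262 with no IDR summit. Over all nuclear genes they were 13.6% and 1.25%.

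**Figure D5:**
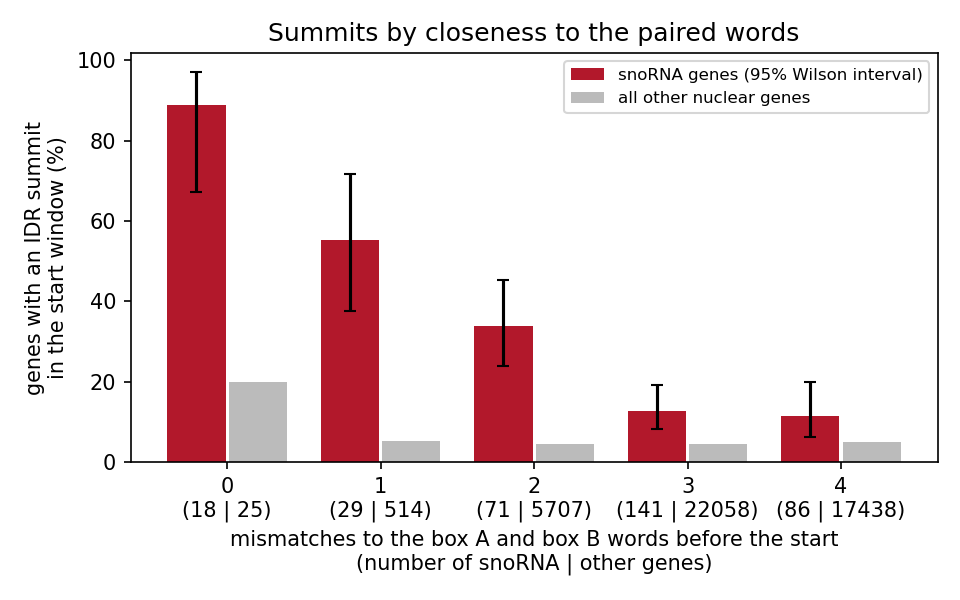
Share of genes with an IDR summit, in percent, by the number of mismatches to the paired words, for snoRNA genes (red, 95% Wilson intervals) and all other nuclear genes (grey). The snoRNA share is 88.9% at 0 mismatches and 11.6% at 4, while that of other genes lies between 4.52% and 5.45% from 1 mismatch on.

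A word pair of the kind found before snRNA genes, GAACC followed 6 to 12 bp later by GTCGG, was searched in the same stretch and strand. These words too were chosen after the data had been seen. The pair lay before 14 snoRNA genes (4.05%), against 0.107% of all nuclear genes and 12 of the 129 snRNA genes. An IDR summit was present at 4 of the 14 (28.6%, 11.7 to 54.6), namely F59C6.15, T26A8.6, C16D9.11 and Y67A10A.14, against 24.1% of the 332 snoRNA genes without it. The stretches before 2 of them, T26A8.6 (chrIV:8428740-8428859, minus strand) and C16D9.11 (chrV:8228970-8229089, minus strand), are printed with these words in capitals, to set them beside the box words above.
T26A8.6: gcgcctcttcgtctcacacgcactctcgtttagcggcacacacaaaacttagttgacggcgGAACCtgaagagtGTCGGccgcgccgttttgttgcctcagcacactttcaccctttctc
C16D9.11: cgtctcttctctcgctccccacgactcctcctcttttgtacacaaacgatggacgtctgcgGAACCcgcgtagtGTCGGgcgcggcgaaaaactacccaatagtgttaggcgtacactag
T26A8.6, which is independent, had its summit 48 bp upstream at signal 127.4. C16D9.11, in the receptor tyrosine kinase gene rol-3, had 119.1 and 64 bp.

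The RUNX core words, the letters that RUNX proteins are known to bind, were searched on both strands. TGTGGT was in 38.2% of snoRNA windows (33.2 to 43.4) and 34.9% of all gene windows, and TGCGGT in 22.3% (18.2 to 26.9) and 18%. The interval for TGTGGT includes the share over all genes, and that for TGCGGT begins just above it. Among the 84 snoRNA genes with an IDR summit the shares were 41.7% (31.7 to 52.4) for TGTGGT and 29.8% (21.0 to 40.2) for TGCGGT, against 37.0% (31.4 to 43.0) and 19.8% (15.5 to 25.1) of the 262 without. The intervals of the genes with and without a summit overlap for both words. Within 50 bp of the summit, TGTGGT was found at 10 of the 80 snoRNA summits (12.5%, 6.93 to 21.5) and 8.42% of all 1923 nuclear summits, and TGCGGT at 6 (7.50%, 3.48 to 15.4) and 6.97%. GAGAGA, a word frequent in worm promoters, was at 11 snoRNA summits (13.8%, 7.86 to 23.0) and 29.7% of all nuclear summits. Box A of the form TGGCNNAGT was at 14 snoRNA summits (17.5%, 10.7 to 27.3), against 10.9% of 138 tRNA summits and 3.59% of all. Box B of the form GGTTCGA was at 6 (7.50%, 3.48 to 15.4), against 34.8% of tRNA summits and 3.74% of all. A match is a description of letters and says nothing on which protein is bound.

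Base composition moved with these positions. Within 50 bp of the summit the median G+C content was 54.5% at the 80 snoRNA summits, 51.5% at 138 tRNA summits and 49.5% at all nuclear IDR summits. In the 100 bp before the start it was 55% (51 to 59.5, interquartile range) for the 55 snoRNA genes with a summit there and 41% (35 to 49) for the 262 without an IDR summit. The part of base composition in the shares above was not tested.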

How the data were processed

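RNT-1 ChIP-seq was done on 2 biological replicates, which form 1 group, per the labels. The authors deposited narrowPeak lists on ce11: 1 per replicate and 1 for both together, which keep background regions (18427, 21390 and 19793 regions for replicate 1, replicate 2 and both), and 1 thresholded by IDR (1931 regions). Per the file descriptions, each was made with a control alignment. How reads were aligned, which caller was run and what IDR cutoff applied is not given in the sources used here. A region's signal is a score deposited by the authors with no stated scale, and the summit is their deposited offset. Read depth is unknown. Lists on ce10 were not used.

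Genes and biotypes came from Ensembl release 115 (WBcel235), with 1 start per gene, and sequence from the RefSeq genome of the same assembly. The strongest summit by signal in a window was used. A host is a protein-coding gene that contains the whole snoRNA gene. H/ACA genes were marked by ACA 3 bases before the end, and C/D genes by TGATGA in the first 20 and CTGA in the last 20 bases. Python 3.11.15, numpy 2.4.6, pandas 2.3.3, scipy 1.17.1 and matplotlib 3.10.9 were used. The window search was tested on simulated data.

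The snoRNA genes and the word lists were chosen with earlier results of these data known. Named genes were the 20 with the highest IDR signal, those sharing their summit, the 5 lowest with an IDR summit, the 5 highest without, and hosts; the genes named for box words, hosts or the snRNA-type words beyond these were chosen after their values were seen. Alternatives were other windows, region overlap, the strongest part of the IDR list, nearest starts, either-strand hosts and each replicate alone.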

Additional observations from a re-analysis of the deposited data

How the results depend on the processing

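The count of 84 snoRNA genes with an IDR summit became 71 in windows from 500 bp upstream to 100 bp downstream, 100 in windows from 2000 bp upstream to 500 bp downstream, 90 by region overlap, 63 with the 965 strongest IDR peaks, and 58 where the snoRNA start had to be the nearest. Over all nuclear genes the share was 3.6%, 7.09%, 5.67% and 2.67% in the first 4 of these. It is not given here for nearest starts. To leave out a replicate, the strongest 1931 regions of the other replicate's list took the place of the IDR list. Without replicate 1 the count was 81 (4.92% of all nuclear genes) and without replicate 2 it was 82 (4.96%). These are not all the same genes, since 10 of the 84 were outside the strongest 1931 in replicate 2 and 4 in replicate 1. The count in same-strand hosts fell to 19 with nearest starts, against 40, since a summit nearer to another start no longer counts, and ran from 29 to 52 under the other settings. Independent genes ran from 28 to 40. The median position was -51 bp with the narrow window, -61 bp with the wide one, -47.5 bp with nearest starts, and -57 to -54 bp with 1 replicate left out, against -56 bp. In the narrow windows TGTGGT was in 23.4% of snoRNA windows (19.4% of all genes), TGCGGT in 12.4% (9.52%), GAGAGA in 36.7% (28.6%), GGTTCGA in 8.38% (4.99%) and TGGCNNAGT in 11.3% (4.68%), since shorter windows hold fewer words. The count of summits 1 to 100 bp upstream (55) and of genes with the paired words and a summit (16) were repeated with alternatives chosen after seeing the data. They gave 41 and 13 with the strongest peaks, 49 to 53 and 14 to 16 with 1 replicate left out. Shares over all nuclear genes under these alternatives are not given here, so only the stability of the snoRNA counts is described. No paired analysis was possible because both samples belong to 1 group. Depth is unknown here, so a snoRNA start without a summit shows only that none passed in these lists.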

Other observations

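Among the 346 snoRNA genes, 58 had ACA 3 bases before their end, the position of this triplet in H/ACA snoRNAs. An IDR summit was found at 27 of these (46.6%, 95% Wilson interval 34.3 to 59.2), against 4 of the 14 genes with box C and box D words (28.6%, 11.7 to 54.6) and 53 of the 274 with neither (19.3%, 15.1 to 24.4). These 27 genes rest on 25 distinct summits, and at 16 of the genes the summit lay 1 to 100 bp upstream. Within same-strand hosts the counts were 20 of 45 genes with the ACA triplet (44.4%, 30.9 to 58.8) and 18 of 132 with neither (13.6%, 8.80 to 20.5). Of these, 11 genes with the triplet and 5 with neither had the summit in the host's start window, where it cannot be assigned to the snoRNA. These summits were then left uncounted, while their genes stayed in the totals. This lowers the share more for genes with the triplet (11 of 45) than for those with neither (5 of 132). The counts in same-strand hosts were then 9 of 45 (20%, 10.9 to 33.8) and 13 of 132 (9.85%, 5.85 to 16.1), whose intervals overlap. Over all snoRNA genes they were then 16 of 58 (27.6%, 17.8 to 40.2) and 48 of 274 (17.5%, 13.5 to 22.5). Among independent genes the counts were 5 of 10 (50%, 23.7 to 76.3) and 30 of 115 (26.1%, 18.9 to 34.8). The class words are strict, so most snoRNA genes fall in neither class, and the difference was not tested.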
